A study of Homo sapiens with 10 samples.

Results

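Genes of sterol and fatty acid synthesis were followed across HepG2 and SK-Hep1, established human lines that the labels describe as hepatocellular carcinoma cells. The set was a fixed list of 29 genes, matched by symbol to the 19215 genes counted in each library. All 29 were found and all 29 passed the filter on low counts, although INSIG1 passed only through SK-Hep1. Choice of the genes used no measured value of this series, but the list was drawn up with earlier results of these data known. Both lines had received lentiviral particles for 48 h (multiplicity of infection 5, polybrene at 10 µg/mL), and were then selected for 2 weeks in 1 µg/mL puromycin and grown in medium with 10% serum. The virus carried a tough decoy (TuD), a hairpin RNA that sequesters a microRNA, against miR-17, or a negative control decoy (NC TuD). The 4 groups were HepG2 TuD and HepG2 NC TuD with 3 libraries each, and SK-Hep1 TuD and SK-Hep1 NC TuD with 2 each. Every group was 1 stable line of pooled resistant colonies, and nothing states that its libraries came from separate cultures. The p-values therefore measure the spread between these libraries, which may be technical, and a decoy effect cannot be told apart from a difference between 2 independently selected lines.

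Cholesterol is built from acetyl-CoA through mevalonate and isoprenoid units to squalene, which is closed to lanosterol and then trimmed to cholesterol. Fatty acids start from cytosolic acetyl-CoA too, which is carboxylated, polymerised to palmitate, desaturated and elongated. Transcription of both routes is driven by the SREBP proteins, which SCAP escorts out of the endoplasmic reticulum when sterol is low and which the INSIG proteins hold back when sterol is high. In liver these routes feed membranes, bile acids and lipoproteins.

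The decoy is aimed at a microRNA family that shares its seed, bases 2 to 8 of the mature strand, shown in capitals in these 6 of the 8 mature human microRNAs with that seed in RefSeq (GRCh38.p14).
hsa-miR-17-5p: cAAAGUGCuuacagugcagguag
hsa-miR-20a-5p: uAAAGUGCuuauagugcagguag
hsa-miR-20b-5p: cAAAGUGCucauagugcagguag
hsa-miR-93-5p: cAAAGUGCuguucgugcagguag
hsa-miR-106a-5p: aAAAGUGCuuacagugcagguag
hsa-miR-106b-5p: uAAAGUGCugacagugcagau

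Few of the sterol and fatty acid genes held a match to this seed. The 3′UTR searched was the longest that GENCODE 29 (GRCh38) gives for the gene. There, 4 of 29 members (13.8%) held at least 1 site, against 31.3% of the tested genes with a 3′UTR. The search took an 8mer, GCACTTTA, a 7mer-m8, GCACTTT, and a 7mer-A1, CACTTTA, on the transcript strand, and an 8mer was not counted again as either 7mer. With the 7mer-A1 left out, 3 members (10.3%) held a site, against 25.0% of tested genes. No member held an 8mer, against 5.33% of tested genes. These shares were not matched for the length of the 3′UTR, which ran from 57 bases (FDPS) to 5492 (ELOVL6) among the members. The 5 sites are shown because they are all the seed matches found among the members, with the match in capitals and the coordinates on GRCh38.
MVK, 7mer-m8, chr12:109597179-109597201, plus strand: gtttatatGCACTTTcttccgat
MSMO1, 7mer-m8, chr4:165343024-165343046, plus strand: ctgtatttGCACTTTgagctctt
SCD, 7mer-A1, chr10:100361165-100361187, plus strand: ctccttttCACTTTAttgctatc
ELOVL6, 7mer-m8, chr4:110048866-110048888, minus strand: cttccaaaGCACTTTcattttgg
ELOVL6, 7mer-m8, chr4:110046400-110046422, minus strand: caaaagtgGCACTTTgattttag
A match is a description of the sequence and does not show that the microRNA acts there. The ELOVL6 sites start at bases 2458 and 4924 of a 3′UTR of 5492 bases, the longest among the members.

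Each library held 12884225 to 15076431 gene counts, so that 1 count was worth 0.0657 to 0.0795 CPM with the TMM library sizes, the unit of all levels here. Hepatocyte markers (ALB, AFP, APOA1, APOB, TTR, SERPINA1, FGB and TF) summed to 52570 to 54780 CPM in HepG2 NC TuD, 45530 to 48140 CPM in HepG2 TuD and 74.2 to 102.6 CPM in SK-Hep1. Mesenchymal markers (VIM, CAV1, CAV2, COL1A2, SPARC and TGFBI) summed to 837.3 to 953.0 CPM in HepG2, mostly from TGFBI. In SK-Hep1 they summed to 12690 to 13480 CPM, mostly from VIM. The list was not uniform, since VIM, CAV1, CAV2 and SPARC were higher in SK-Hep1 but TGFBI was lower. TGFBI stood at 796.7 CPM in HepG2 NC TuD and at 2.48 CPM in SK-Hep1 NC TuD. COL1A2 summed to only 5 counts over SK-Hep1 NC TuD and 6 over SK-Hep1 TuD. Endothelial markers (PECAM1, CDH5, VWF, KDR and TEK) summed to at most 0.281 CPM in SK-Hep1, with PECAM1 and KDR at 0 there. In SK-Hep1 most of the hepatocyte sum came from SERPINA1, at 64.8 ± 1.46 CPM in NC TuD (SD, n = 2), and TTR was at 0, although the label gives a liver tumour. ALB stood at 59 and 113 counts in SK-Hep1 NC TuD and at 0 and 4 in SK-Hep1 TuD, beside 170213 to 190532 in HepG2 NC TuD and 128870 to 137654 in HepG2 TuD.

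The members took a larger part of the HepG2 libraries than of the SK-Hep1 libraries, 0.535% to 0.558% of gene counts against 0.356% to 0.404%. Most of that gap lay in FASN and SCD, which together took 0.225% to 0.243% against 0.0961% to 0.117%, while the others took 0.308% to 0.317% against 0.259% to 0.287%. Levels between genes are compared here as CPM per kilobase of the gene's merged GENCODE 29 exons. On that scale the same 3 fatty acid genes led every group. In HepG2 NC TuD these were SCD, the delta-9 desaturase, at 242.2 ± 1.40 (SD, n = 3), FASN, the fatty acid synthase, at 117.3 ± 9.44, and ACLY, which makes cytosolic acetyl-CoA from citrate, at 84.2 ± 1.51. The order turned round in SK-Hep1 NC TuD, where ACLY stood at 85.6 ± 1.05 (SD, n = 2), FASN at 77.1 ± 5.65 and SCD at 60.7 ± 15.5. There FASN and SCD overlapped within 1 SD, but FASN was above SCD in each library (81.1 against 71.6, and 73.1 against 49.7). At the lower end of the HepG2 NC TuD order, STARD4, MVK and HSD17B7 lay at 5.08 ± 0.327, 4.90 ± 0.183 and 4.80 ± 0.378 and could not be ranked, while INSIG1 was at 0. MVD and TM7SF2 were lowest in SK-Hep1 NC TuD, at 2.61 ± 0.267 and 1.36 ± 0.319.

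The first comparison asked whether these genes differed between HepG2 carrying the miR-17 decoy and HepG2 carrying the control decoy. Most did not pass the test. ELOVL6, which elongates palmitate to stearate, fell, and TM7SF2, MVK and SCAP rose, none by more than 1.30-fold. edgeR called 4 of 29 members (13.8%) at an adjusted p below 0.05, beside 19.3% of all 13349 genes tested. Of these, 3 were higher, beside 10.7% of all genes, and 1 was lower, beside 8.58%. The median log2 fold change of the 28 members other than INSIG1 was -0.03, beside 0.00 over all genes, and the median of absolute values over the 29 members was 0.07, beside 0.11. The share of members called and the size of their changes were thus not above those of genes at large. Between the same HepG2 arms 5 of 8 hepatocyte markers were called lower with the decoy, among them ALB (-0.51 ± 0.04, adjusted p = 7.79e-09) and AFP (-0.54 ± 0.03, adjusted p = 2.54e-20), and 1, SERPINA1, was called higher (0.08 ± 0.03, adjusted p = 0.0409). The summed marker levels of the arms, given above, did not overlap, and their part in the members' changes was not tested.

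**Figure D1:**
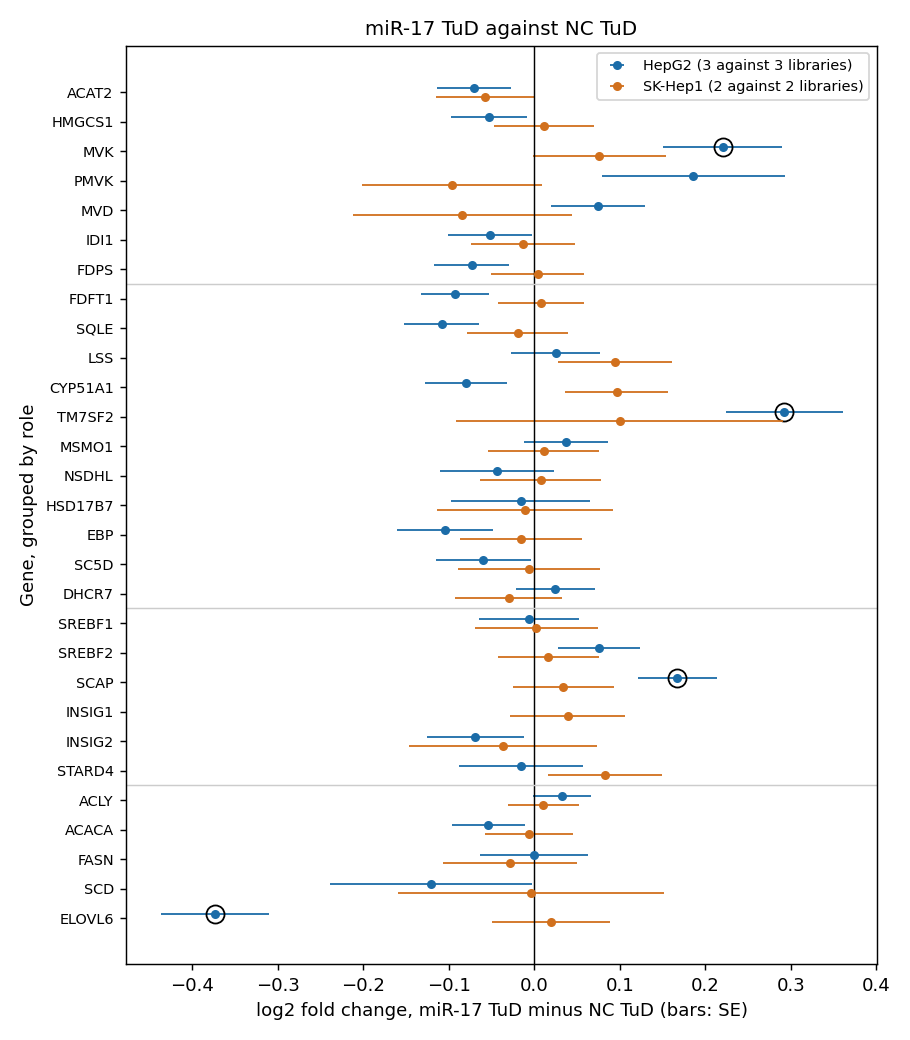
Log2 fold change (miR-17 TuD minus NC TuD) of each member in HepG2 (blue, 3 against 3 libraries) and SK-Hep1 (orange, 2 against 2), with bars of 1 SE, grouped from top to bottom as isoprenoid precursor enzymes, squalene and sterol enzymes, sterol sensing and transport, and fatty acid enzymes. Circled points passed an adjusted p below 0.05, which were ELOVL6 (-0.37), TM7SF2 (0.29), MVK (0.22) and SCAP (0.17) in HepG2 and none in SK-Hep1; INSIG1 has no HepG2 value because it was at 0 or 1 count there.

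ELOVL6 (chromosome 4, 110045846 to 110199199, minus strand, GRCh38) showed the largest change. Its level was 41.95, 45.5 and 46.45 CPM in the HepG2 NC TuD libraries and 35.2, 33.0 and 35.1 CPM in the HepG2 TuD libraries. Every TuD library lay below every control library. The log2 fold change was -0.37 ± 0.06 (SE, n = 3 per arm, edgeR adjusted p = 8.23e-06), or 1.30-fold lower. This is the member with a pair of seed matches, and whether they bear on its fall was not tested. In bulk RNA, fewer expressing cells and less RNA per cell cannot be told apart. The call remained without any single library, with DESeq2 and with limma on the deposited log2 values.

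Among the enzymes of isoprenoid precursors, MVK, mevalonate kinase (chromosome 12, 109573255 to 109598117, plus strand), was the 1 of 7 that was called. It stood at 30.9, 31.2 and 33.1 CPM in HepG2 NC TuD and at 37.3, 38.2 and 35.5 CPM in HepG2 TuD. The arms did not overlap, and the log2 fold change was 0.22 ± 0.07 (edgeR adjusted p = 0.0174). MVK holds 1 seed match, and whether it bears on the rise was not tested. The call was lost without HepG2 TuD replicate 1 (adjusted p = 0.0632) or 2 (0.0729), without HepG2 NC TuD replicate 1 (0.0886) or 2 (0.0535), and with limma (0.0626). MMAB, on the opposite strand, overlaps 4.7% of the MVK exon length and measured 0.03 ± 0.08 (adjusted p = 0.825). Strand was not recorded by the library kit. PMVK, phosphomevalonate kinase, measured 0.19 ± 0.11 at only 9.94 to 13.0 CPM (adjusted p = 0.247). HMGCS1, which makes HMG-CoA and is a standard readout of SREBP2 activity, stood at 202.7, 199.2 and 192.7 CPM in control libraries and at 185.6, 187.0 and 200.7 CPM with the decoy. Its arms overlapped, at -0.05 ± 0.04 (adjusted p = 0.464). ACAT2, MVD, IDI1 and FDPS lay between -0.07 and 0.07.

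In the squalene and sterol branch, 1 of 11 enzymes was called. TM7SF2, a sterol C14 reductase (chromosome 11, 65111845 to 65116384, plus strand), stood at 45.2, 39.2 and 40.9 CPM in HepG2 NC TuD and at 55.2, 52.0 and 46.25 CPM in HepG2 TuD. The lowest TuD library was only just above the highest control library. Its log2 fold change was 0.29 ± 0.07 (edgeR adjusted p = 0.001), and limma did not call it (adjusted p = 0.16). SQLE, squalene epoxidase, and FDFT1, squalene synthase, measured -0.11 ± 0.04 (adjusted p = 0.0784) and -0.09 ± 0.04 (adjusted p = 0.0965). Their arms did not overlap, as was true of 9 of the 29 members beside 31.0% of all tested genes. The others of that 9 that were not called were FDPS, PMVK and SCD. MSMO1, which holds a seed match, measured 0.04 ± 0.05 (adjusted p = 0.674).

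Of the sterol sensors, SCAP (chromosome 3, 47413694 to 47477126, minus strand) rose. It stood at 113.4, 107.3 and 116.9 CPM in HepG2 NC TuD and at 122.6, 130.4 and 126.3 CPM in HepG2 TuD, with arms that did not overlap. The log2 fold change was 0.17 ± 0.05 (edgeR adjusted p = 0.00597), lost without HepG2 NC TuD replicate 2 (adjusted p = 0.0544). SREBF2, the gene of the SREBP that drives sterol synthesis, stood at 176.8, 159.4 and 182.1 CPM without and 177.2, 194.6 and 174.3 CPM with the decoy. SREBF1, the gene of the SREBP that drives fatty acid synthesis, stood at 90.3, 81.2 and 97.6 CPM without and 87.7, 95.9 and 84.3 CPM with it. Both overlapped between arms, at 0.08 ± 0.05 (adjusted p = 0.305) and -0.01 ± 0.06 (adjusted p = 0.985). INSIG2 measured -0.07 ± 0.06, and STARD4, which carries sterol through the cytosol, -0.02 ± 0.07, neither called.

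The fatty acid enzymes other than ELOVL6 were not called. FASN stood at 1092, 1013 and 1190 CPM in control libraries and at 1082, 1189 and 1023 CPM with the decoy, so that the fold change was 0.00 ± 0.06 (edgeR adjusted p = 1). SCD, which holds a 7mer-A1, stood at 1299, 1307 and 1292 CPM in control libraries and at 1173, 1181 and 1230 CPM with the decoy. Its HepG2 arms did not overlap, but its spread in the fit came also from SK-Hep1 and the value was -0.12 ± 0.12 (adjusted p = 0.573). With only the HepG2 libraries in the fit it was called, at -0.12 (adjusted p = 0.0104). ACACA, acetyl-CoA carboxylase 1, and ACLY measured -0.05 ± 0.04 and 0.03 ± 0.03.

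**Figure D2:**
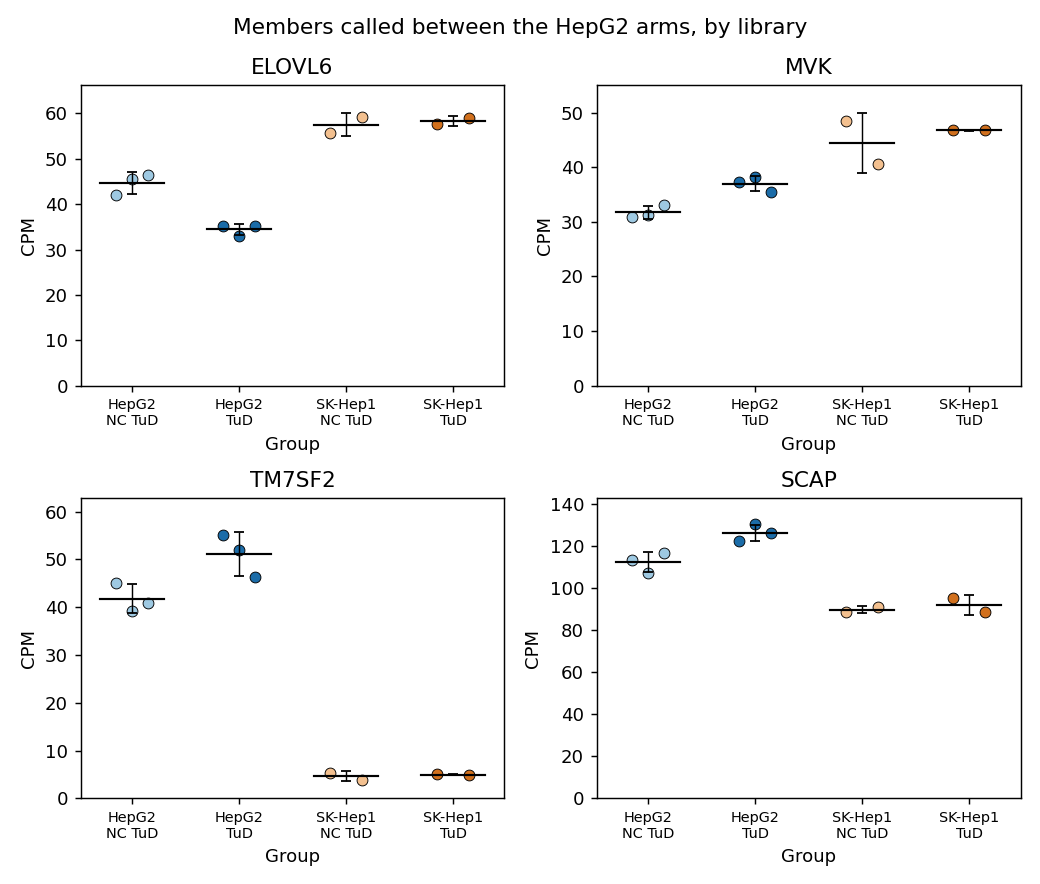
Level in CPM of the 4 members called between the HepG2 arms, with 1 point per library, a line at the group mean and bars of 1 SD (n = 3 in HepG2, n = 2 in SK-Hep1). HepG2 TuD lies below HepG2 NC TuD for ELOVL6 and above it for MVK, TM7SF2 and SCAP, and the SK-Hep1 arms overlap for each of the 4.

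The 3 risers are rich in G and C. The GC content of the gene's longest protein-coding transcript was 59.5% for MVK, 62.0% for TM7SF2 and 62.3% for SCAP, and that of ELOVL6 was 41.2%. Over all tested genes the HepG2 fold change had a median of 0.06 in the quartile with a GC content of at least 57.4% and of -0.03 in the quartile below 42.3%. Libraries of 1 arm also differed in that upper quartile, taking genes with a mean of at least 10 CPM. Median deviations from the group mean were 0.007, 0.064 and -0.072 in HepG2 TuD replicates 1, 2 and 3. In HepG2 NC TuD they were 0.016, -0.068 and 0.056. The source of these trends was not tested. Among the members, 8 of the 10 at or above 57.4% lay above 0, with a median of 0.07, and 2 of the 18 below it did, with a median of -0.06. With an offset for GC content, added after the data were seen, the log2 fold changes became -0.34 for ELOVL6, 0.24 for TM7SF2, 0.18 for MVK and 0.11 for SCAP, all still called. SCAP was then 1.5 times smaller on the log2 scale, and SQLE and FDFT1 joined the calls as lower.

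In SK-Hep1 the same comparison found no member. edgeR called 0 of 29, beside 0.869% of all tested genes, and none had an unadjusted p below 0.05, beside 8.36% of genes. DESeq2 and limma called 0 as well. Log2 fold changes ran from -0.10 to 0.10, with a median of 0.00 beside -0.01 over all genes. With 2 libraries per arm the SE ran from 0.04 to 0.19, so that the precision was uneven. The 95% interval of TM7SF2 ran from -0.28 to 0.48 and holds its HepG2 value, whereas that of ELOVL6 ran from -0.12 to 0.16. Between these SK-Hep1 arms too, hepatocyte markers differed, with 3 of 8 called lower with the decoy and 1 called higher.

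None of the genes called in HepG2 passed the test in SK-Hep1. ELOVL6 stood at 55.8 and 59.3 CPM in the control arm and at 57.6 and 59.1 CPM with the decoy (0.02 ± 0.07, n = 2 per arm, edgeR adjusted p = 0.986). MVK stood at 48.4 and 40.5 CPM without and 46.75 and 46.8 CPM with it (0.08 ± 0.08, adjusted p = 0.848). SCAP stood at 88.6 and 90.95 CPM without and at 95.4 and 88.6 CPM with the decoy (0.03 ± 0.06, adjusted p = 0.941). TM7SF2 had few counts, 59 to 77 per library (0.10 ± 0.19, adjusted p = 0.952). The arms overlapped for each of these. HMGCS1, FASN, SREBF1, SREBF2 and INSIG1 measured 0.01 ± 0.06, -0.03 ± 0.08, 0.00 ± 0.07, 0.02 ± 0.06 and 0.04 ± 0.07 on the log2 scale.

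SCD in SK-Hep1 depended on which control library was used. It stood at 384.1 and 266.7 CPM in SK-Hep1 NC TuD and at 304.6 and 343.6 CPM in SK-Hep1 TuD, so that both TuD libraries fell between the control libraries. The log2 fold change was 0.00 ± 0.16 (edgeR adjusted p = 1). Without SK-Hep1 NC TuD replicate 1 it became 0.28 (adjusted p = 0.00339), and without replicate 2 it became -0.25 (adjusted p = 0.0155), each time with the lone control library assumed to vary like the other groups.

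The difference between the responses was tested directly, as the SK-Hep1 response minus the HepG2 response. ELOVL6 was the 1 member called, beside 3.75% of all genes, at 0.39 ± 0.09 (edgeR adjusted p = 0.0068). It was positive, beside 1.24% of all genes that were called higher and 2.51% called lower. That call was lost without SK-Hep1 NC TuD replicate 1 (0.35, adjusted p = 0.0615) or without SK-Hep1 TuD replicate 2 (0.37, adjusted p = 0.0575). For MVK, SCAP and TM7SF2 the differences were -0.14 ± 0.10, -0.13 ± 0.07 and -0.19 ± 0.20 (adjusted p = 0.562, 0.408 and 0.721). A difference between the lines was thus not shown for these 3.

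Neighbouring routes were examined with a list of 44 genes of SREBP cleavage, isoprenoid use, sterol storage and export, fatty acid supply and triglyceride assembly, of which 43 were tested. In HepG2, 12 of 43 (27.9%) were called, beside 19.3% of all genes. Of these, 8 (beside 10.7% of all genes) were higher and 4 (beside 8.58%) were lower. By part of the list, 2 of 6 (33.3%) were called in SREBP cleavage and 1 of 7 (14.3%) in isoprenoid use. In sterol storage and export 3 of 10 (30.0%) were called, and in fatty acid supply 1 of 11 (9.09%). The 43 and the 11 include SCD5 and ME1, which passed the filter only through SK-Hep1. These genes summed to at most 4 counts over either HepG2 arm, too few to be called there. Triglyceride assembly had the largest share, with 5 of 9 (55.6%) called, 4 of them higher. The list was drawn up with earlier results of these data known. AGPAT2, which makes phosphatidic acid, rose from 8.36 ± 0.559 to 16.8 ± 1.32 CPM (SD, n = 3), at 1.01 ± 0.10 (SE, edgeR adjusted p = 2.41e-11). DGAT1 and DGAT2, which complete triglyceride from diacylglycerol, rose by 0.40 ± 0.05 (adjusted p = 2.75e-09) and 0.28 ± 0.05 (adjusted p = 2.08e-05). The acyl-CoA synthetases split, with ACSL1 up by 0.39 ± 0.05 (adjusted p = 9.74e-08) and ACSL3 at -0.35 ± 0.04 (adjusted p = 8.55e-10). MBTPS1, the site-1 protease that cuts SREBP in the Golgi, rose by 0.29 ± 0.04 (adjusted p = 3.47e-07). These 6 kept their calls under every alternative run.

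In SK-Hep1 edgeR called 0 of these 43 genes, beside 0.869% of all genes, and 4 (9.3%) had an unadjusted p below 0.05, beside 8.36%. DESeq2 and limma also called 0 of them, and a fit on the SK-Hep1 libraries alone called 1, TMEM97. The difference between the lines' responses was called for AGPAT2 (-0.88 ± 0.14, edgeR adjusted p = 2.42e-05), ACSL3 (0.28 ± 0.07, adjusted p = 0.00641), DGAT1 (-0.36 ± 0.10, adjusted p = 0.0228) and MBTPS1 (-0.26 ± 0.07, adjusted p = 0.0248). AGPAT2 kept that call without any single library. ACSL3 and MBTPS1 lost it with limma (adjusted p = 0.0937 and 0.067). ACSL3 also lost it without SK-Hep1 NC TuD replicate 2 (adjusted p = 0.138) or SK-Hep1 TuD replicate 2 (0.0941), and DGAT1 without SK-Hep1 NC TuD replicate 1 (0.165) or SK-Hep1 TuD replicate 1 (0.192). MBTPS1 also lost it without SK-Hep1 NC TuD replicate 1 (0.227), SK-Hep1 TuD replicate 1 (0.204) or HepG2 NC TuD replicate 1 (0.0916).

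A second comparison set SK-Hep1 against HepG2 within each arm. Here most members differed, as most genes did, and in most cases SK-Hep1 was lower. In the NC TuD arm edgeR called 25 of 29 members (86.2%), beside 86.7% of all tested genes. Of these, 7 were higher, beside 43.9% of all genes, and 18 were lower, beside 42.8%. INSIG1, which passed the filter only through SK-Hep1, is 1 of the 7, and without it 24 of 28 were called, 6 higher. The median log2 fold change of these 28 was -0.33, beside 0.02 over all genes, and their median absolute value was 0.535, beside 0.86 over all genes. In the TuD arm 25 were called too, beside 87.3%, again with 7 higher, beside 44.1%, and 18 lower, beside 43.1%. Without INSIG1 these were 24 of 28 with 6 higher, a median of -0.27 beside 0.02 (-0.18 with INSIG1 ranked at the top) and a median absolute value of 0.62 beside 0.86. The 7 and the 18 were the same genes in both arms, whereas ACLY, IDI1, HSD17B7 and SREBF1 were called in neither. Each line is 1 cell line, so these tests compare 2 lines and not 2 tumour types.

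**Figure D3:**
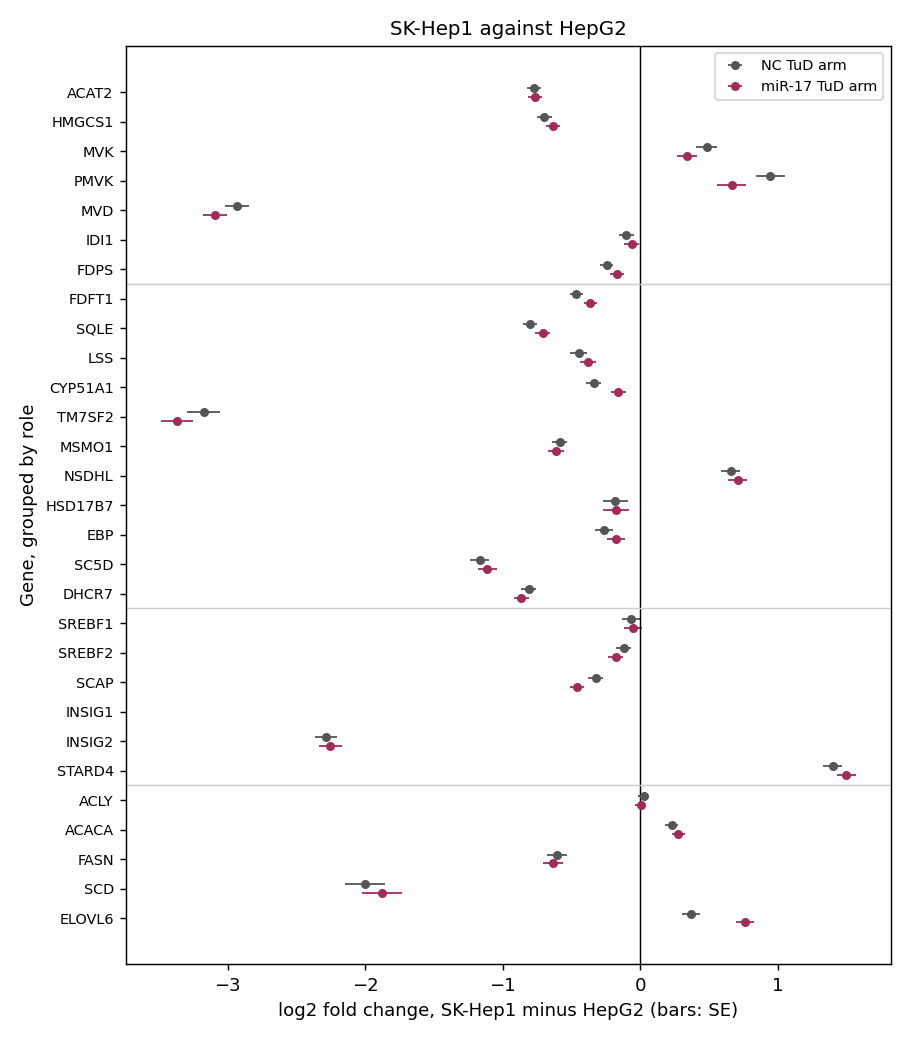
Log2 fold change (SK-Hep1 minus HepG2) of each member in the NC TuD arm (grey) and the miR-17 TuD arm (purple), with bars of 1 SE, in the same order by role. TM7SF2 (-3.18 in the NC TuD arm), MVD (-2.93), INSIG2 (-2.29) and SCD (-2.00) lie far to the left and STARD4 (1.40) far to the right; INSIG1 is not drawn because HepG2 had no more than 1 count per library.

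Among the isoprenoid precursor enzymes, adjacent steps differed in opposite directions. MVD, which decarboxylates mevalonate diphosphate (chromosome 16, 88651935 to 88663161, minus strand), stood at 93.0, 89.45 and 98.9 CPM in HepG2 NC TuD and at 13.2 and 11.4 CPM in SK-Hep1 NC TuD. That is a log2 fold change of -2.93 ± 0.09 (edgeR adjusted p = 4.61e-37), or 7.63-fold lower. PMVK, which makes its substrate, was higher in SK-Hep1, at 18.97 and 20.1 CPM against 10.1, 9.94 and 10.3 CPM (0.95 ± 0.11, adjusted p = 5.75e-12). MVK, the step before, was higher as well, at 0.48 ± 0.07 (adjusted p = 4.32e-08) from the levels given above. HMGCS1 stood at 131.9 and 112.7 CPM in SK-Hep1 NC TuD, below every HepG2 control library (-0.70 ± 0.05, adjusted p = 2.39e-18). ACAT2, the cytosolic thiolase, measured -0.78 ± 0.05 and FDPS, farnesyl diphosphate synthase, -0.25 ± 0.05. ACAT2 shares 26.5% of its exon length with SOD2 and 9.2% with TCP1 on the opposite strand, and FDPS shares 18.6% with RUSC1-AS1, so part of their reads is uncertain.

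In the squalene and sterol branch 9 of 11 enzymes were lower in SK-Hep1 NC TuD, beside 42.8% of all genes, and 1 was higher, beside 43.9%. TM7SF2 differed most, at 5.41 and 3.87 CPM against 39.2 to 45.2 CPM in HepG2 (-3.18 ± 0.12, edgeR adjusted p = 1.34e-32). SC5D, the lathosterol oxidase, stood at 35.3 and 33.3 CPM against 72.6, 82.7 and 75.8 CPM (-1.17 ± 0.07, adjusted p = 4.76e-23). The higher one was NSDHL, which removes the C4 methyl groups together with MSMO1 and HSD17B7. It stood at 60.6 and 57.5 CPM against 38.5, 34.9 and 38.9 CPM (0.66 ± 0.07, adjusted p = 4.62e-13). Its partner MSMO1 was lower (-0.59 ± 0.06, adjusted p = 4.57e-14) and HSD17B7 was not called (-0.18 ± 0.09, adjusted p = 0.0611). DHCR7, SQLE, FDFT1, LSS, CYP51A1 and EBP lay between -0.81 and -0.26, all called. CYP51A1 shares 79.4% of its exon length with AC000120.2 on the same strand. AC000120.2 was not among the counted genes, so any reads of it could not be separated from those of CYP51A1. HSD17B7 has pseudogene copies, so its counts are uncertain too.

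The fatty acid enzymes were mixed. SCD was 4.0-fold lower in SK-Hep1 NC TuD (-2.00 ± 0.15, edgeR adjusted p = 6.86e-06) and FASN was 1.52-fold lower, at 759.5 and 684.8 CPM (-0.61 ± 0.07, adjusted p = 3.16e-06). Neither overlapped with the HepG2 control libraries. ACACA and ELOVL6 were higher, at 0.23 ± 0.05 (adjusted p = 1.59e-05) and 0.37 ± 0.07 (adjusted p = 9.18e-07), and ACLY measured 0.02 ± 0.04 (adjusted p = 0.563). In the TuD arm ELOVL6 differed by 0.76 ± 0.07 (adjusted p = 1.23e-15), the HepG2 level being lower there. SCD5, the second human stearoyl-CoA desaturase, summed to 2 counts over the HepG2 NC TuD libraries and 4 over HepG2 TuD, against 1800 over SK-Hep1 NC TuD and 1763 over SK-Hep1 TuD. The ratio of its level in SK-Hep1 to that in HepG2 was 1223 in the NC TuD arm, with an exact 95% interval from 337.9 to 10100 that covers counting error only, and 675.7 in the TuD arm, with an interval from 263.4 to 2483. ME1, the cytosolic malic enzyme that supplies NADPH, had 1 and 0 counts over the HepG2 arms and 578 and 559 over those of SK-Hep1.

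Sterol sensing differed by a swap between the INSIG genes. INSIG1 had 0, 0 and 0 counts in HepG2 NC TuD and 0, 1 and 1 in HepG2 TuD, against 2250 and 1924 in SK-Hep1 NC TuD and 1907 and 2134 in SK-Hep1 TuD. In the NC TuD arm its level was at least 1890-fold higher in SK-Hep1, set against a floor of 3 counts over the HepG2 group. In the TuD arm the ratio was 3097, with an exact 95% interval from 856.9 to 25580 for counting error. INSIG2 (chromosome 2, 118088452 to 118110997, plus strand) went the other way, at 91.6, 86.5 and 95.45 CPM in HepG2 NC TuD and 18.4 and 18.98 CPM in SK-Hep1 NC TuD (-2.29 ± 0.08, edgeR adjusted p = 5.24e-31). It was as much lower in the TuD arm (-2.25 ± 0.08, adjusted p = 2.33e-30). INSIG1 is itself a classic SREBP target, whereas INSIG2 has a liver promoter that does not need SREBP.

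**Figure D4:**
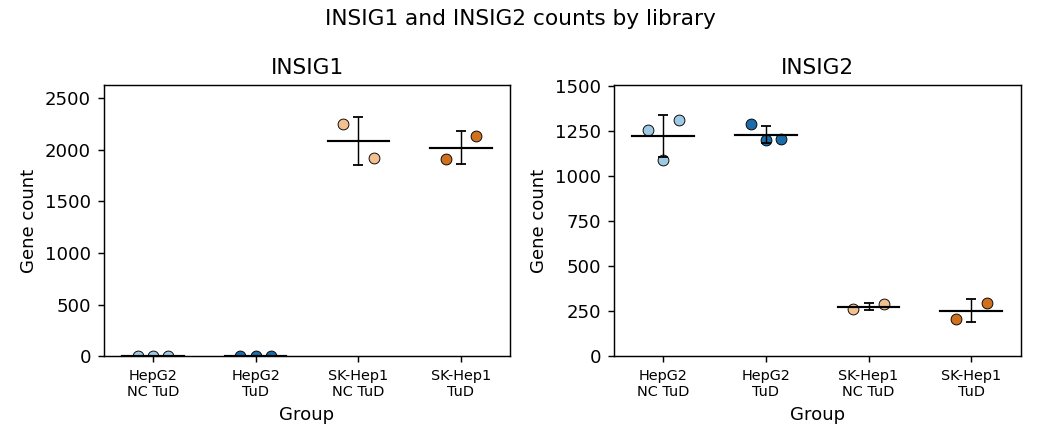
Gene counts of INSIG1 and INSIG2 in each of the 10 libraries, with a line at the group mean and bars of 1 SD (n = 3 in HepG2, n = 2 in SK-Hep1). INSIG1 lies at 0 or 1 in all 6 HepG2 libraries and at 1907 to 2250 in SK-Hep1, and INSIG2 lies at 1088 to 1311 in HepG2 and at 207 to 298 in SK-Hep1.

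INSIG1 lies on chromosome 7 (155297776 to 155310235, plus strand, GRCh38), and the next counted genes on either side were examined. PAXIP1 had 500 to 606 counts in HepG2 and 714 to 800 in SK-Hep1, and RBM33 had 853 to 1008 and 966 to 1069, so both were transcribed in each line. Between them, HTR5A and CNPY1 had 0 counts in all libraries, and EN2, the counted gene next to INSIG1 on its 3′ side, had 0 in all HepG2 libraries and 28 to 46 in SK-Hep1. SHH, beyond RBM33, had 21 to 38 counts in HepG2 and 0 in SK-Hep1. Why INSIG1 had almost no counts in HepG2 was not tested.

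The other sensing genes differed less. STARD4 was 2.64-fold higher in SK-Hep1 NC TuD, at 78.8 and 73.4 CPM against 27.65, 31.0 and 28.0 CPM (1.40 ± 0.07, edgeR adjusted p = 9.44e-27). SCAP was lower, at -0.33 ± 0.05 (adjusted p = 1.53e-07). SREBF1, which shares 6.9% of its exon length with RAI1 on the opposite strand, stood at 93.0 and 78.9 CPM and overlapped with HepG2 (-0.06 ± 0.07, adjusted p = 0.349). SREBF2, at 167.6 and 150.4 CPM, overlapped too and was called only just (-0.12 ± 0.05, adjusted p = 0.0345). That call was lost with DESeq2 (adjusted p = 0.0664) and limma (0.11), and without HepG2 NC TuD replicate 1 (0.119), HepG2 NC TuD replicate 3 (0.171) or SK-Hep1 NC TuD replicate 2 (0.548). In the TuD arm SREBF2 measured -0.18 ± 0.05 (adjusted p = 0.00215), lost without SK-Hep1 TuD replicate 1 (0.0618). Among the members, the largest gaps in RNA level between the lines lay in INSIG1, TM7SF2, MVD, INSIG2 and SCD. Those of SREBF1 and SREBF2 were small, and the activity of the SREBP factors was not measured.

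Libraries of 1 group also differed among themselves in these genes. In SK-Hep1 NC TuD, replicate 1 was above replicate 2 for 23 of 29 members (79.3%), beside 44.8% of all genes, with a median log2 ratio of 0.16 beside -0.01. SCD differed by 0.53, TM7SF2 by 0.48, INSIG1 by 0.32, MVK by 0.26 and HMGCS1 by 0.23. In SK-Hep1 TuD, replicate 1 was above replicate 2 for 7 of 29 (24.1%), beside 51.6% of genes, with a median of -0.04. Between HepG2 libraries of 1 arm that share ran from 32.1% to 64.3% of 28 members, and the median from -0.04 to 0.05. The members thus moved together between the 2 SK-Hep1 control libraries by more than their median decoy response in either line.

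**Figure D5:**
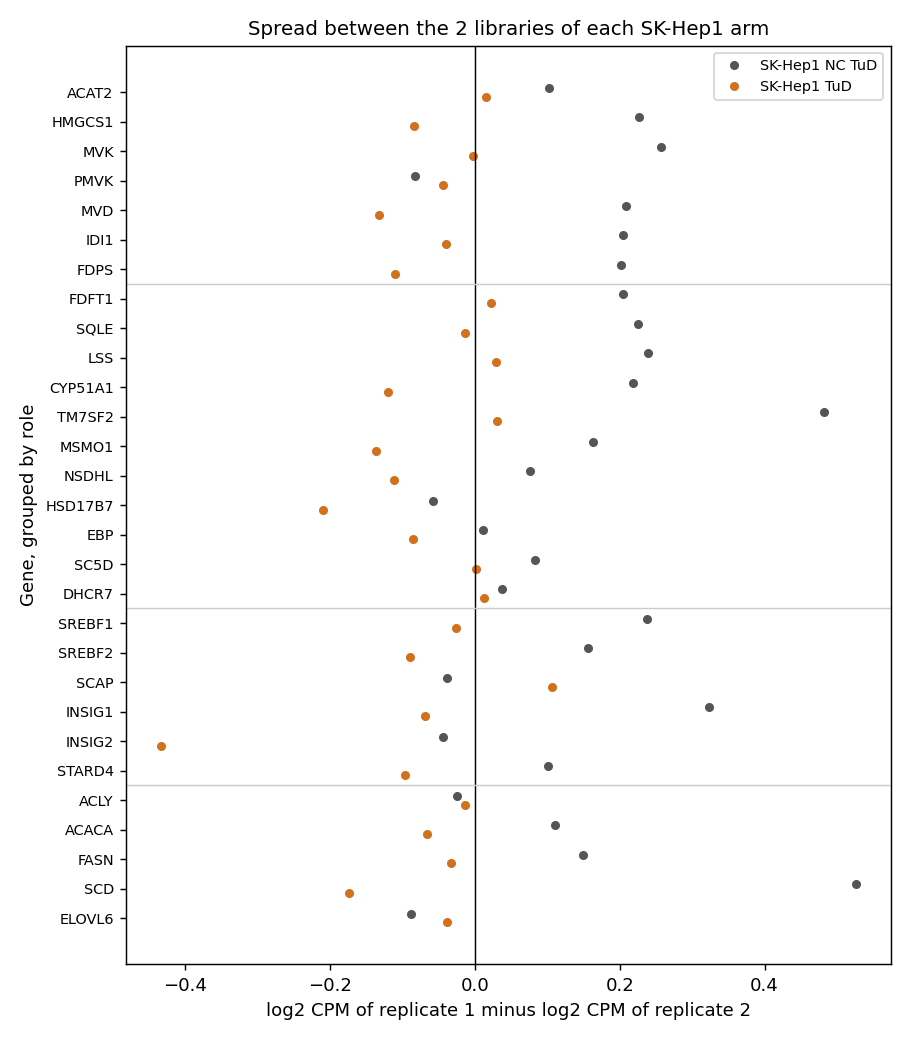
Log2 CPM of replicate 1 minus that of replicate 2 for each member in SK-Hep1 NC TuD (grey) and SK-Hep1 TuD (orange), in the same order by role, with 1 point per gene and no error since each is a pair of libraries. In SK-Hep1 NC TuD 23 of 29 points lie right of 0, up to 0.53 for SCD, and in SK-Hep1 TuD 7 of 29 do.

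Promoters were searched for 1 sterol regulatory element, since these genes are known as SREBP targets. RefSeq (GRCh38.p14) gave a promoter window, 250 bases before to 50 after the start, for 25 of 29 members. The letters TCACNCCAC, sought on both strands, were in 1 of the 25 (4.0%), against 1.52% of 10142 tested genes with a window and 1.13% of all 35116 windows. The match lay in SREBF2, starting 133 bases before its start site, and is shown here with its motif in capitals.
SREBF2, chr22:41832960-41832992, plus strand: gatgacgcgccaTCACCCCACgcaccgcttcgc
Absence of these letters in the other windows says nothing about binding of the factor there.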

How the data were processed

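Poly(A) RNA of 10 libraries was read as 50 bp pairs from 150 ng of RNA. The authors deposited 1 file of whole-number gene counts per library, and 1 matrix of log2 values. Per the submitters' processing notes these came from STAR, hg19, HTSeq 0.5.4p5 and limma, while the series' design text names Bowtie, TopHat, a mouse genome and RSEM, and the conflict is not settled by the sources used here. Entries of the count files that name no gene (reads without a feature 11.6% to 14.1%, ambiguous 0.584% to 0.619%, not unique 4.48% to 5.04%, not aligned 2.43% to 2.87%) were left out.

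Counts were fitted with edgeR 4.0.16 (R 4.3.3) as 4 group means over all 10 libraries, with TMM scaling, filterByExpr by group and a robust quasi-likelihood test. This left 13349 genes, and two-sided p-values were adjusted over them by Benjamini-Hochberg, with calls below 0.05. The SE is the log2 fold change over the root of F. CPM used the TMM library sizes. The fit was tested on simulated counts. DESeq2 1.42.0 and limma 3.58.1 on the deposited log2 values were alternatives, as were size factors, filters, left-out libraries, a replicate block and a GC offset (99.3% of tested genes had a GC value). The 95% intervals of ratios of low counts and the floor of 3 counts cover counting error only, while those of log2 fold changes are 1.96 SE either side and include the spread between libraries. Replicate pairs differed by more than counting error (chi-square over degrees of freedom 1.4 to 3.7).

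Symbols were matched to GENCODE 29 directly (12753 genes) or by RefSeq synonym (499), and 97 had no match; 13228 had a 3′UTR. Members, roles and the list of related genes were chosen with earlier results of these data known. Named with values by library were members called for the decoy or its difference, the 5 largest line differences per direction and SREBF1, SREBF2, INSIG1, HMGCS1, FASN and SCD, and up to 6 called related genes per decoy contrast.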

Additional observations from a re-analysis of the deposited data

Results flagged for a closer look

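Genes are given here because the decoy response differed between the lines by a test of the difference itself, as the SK-Hep1 response minus the HepG2 response in log2 units by edgeR. Among the members this was ELOVL6, at 0.39 (adjusted p = 0.0068), lower with the decoy in all 3 HepG2 libraries against all 3 controls and overlapping in SK-Hep1. Among the related genes it was AGPAT2, at -0.88 (adjusted p = 2.42e-05), DGAT1, at -0.36 (0.0228), MBTPS1, at -0.26 (0.0248), and ACSL3, at 0.28 (0.00641). Of these 5, AGPAT2 kept its call under every alternative run. ELOVL6, DGAT1, MBTPS1 and ACSL3 each lost theirs without some single library, DGAT1, MBTPS1 and ACSL3 also with the replicate block, and ACSL3 (0.0937) and MBTPS1 (0.067) with limma. Groups of 2 or 3 libraries are too small to look for single outlying libraries.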

How the results depend on the processing

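Of 881 values of single genes under 19 alternatives, 847 kept their direction and their side of the threshold, counting as kept the 45 of 363 uncalled values whose sign changed. Between the HepG2 arms the count of members called, 4 in the main analysis, was 2 with limma on the deposited log2 values, which lost MVK and TM7SF2, and ran from 2 to 5 with 1 library left out, the lowest without HepG2 NC TuD replicate 2. Over all genes that comparison called 2571, 1642 with limma, 1806 with DESeq2 and 3262 with the GC offset. Between the SK-Hep1 arms the count was 0 and ran from 0 to 1 with 1 library left out, the 1 being SCD in opposite directions (0.28 without SK-Hep1 NC TuD replicate 1, -0.25 without replicate 2). Over all genes it called 116, 306 with the GC offset and 274 with only the SK-Hep1 libraries. The difference between the responses had 1 member called, from 0 to 2 with 1 library left out: without SK-Hep1 NC TuD replicate 1 the calls were CYP51A1 and SCD in place of ELOVL6, and without SK-Hep1 TuD replicate 2 there were none. Over all genes it called 500, 312 with limma and 1070 with the GC offset. The counts between the lines, 25 in each arm, ran from 24 to 27 and from 21 to 26 with 1 library left out, where 21 was without SK-Hep1 TuD replicate 1 and lost CYP51A1, EBP, FDPS and SREBF2. The cause of these changes was not tested.

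Replicate numbers are shared by the arms, but same-numbered libraries did not deviate together (correlations of 0.04, -0.22 and -0.18 in HepG2 and -0.07 in SK-Hep1). Differently numbered HepG2 pairs ran from -0.07 to 0.24. The highest were TuD replicate 3 with NC TuD replicate 2 (0.24) and TuD replicate 2 with NC TuD replicate 3 (0.19). With 2 libraries per arm, every SK-Hep1 pair had the same size, 0.07, so that value says little. The labels do not say that a number marks a shared culture or day. With a replicate block the counts of members called were 4 in HepG2, 0 in SK-Hep1 and 1 for the difference, and the counts over all genes were 1872, 58 and 227 in place of 2571, 116 and 500. The block left ACSL3 (adjusted p = 0.0677), DGAT1 (0.0913) and MBTPS1 (0.129) uncalled for the difference. Low counts limited the precision for TM7SF2 in SK-Hep1, at 59 to 77 counts, and for INSIG1 in HepG2, at 0 or 1 count.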
